A study of Mus musculus with 8 samples.

Results

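Peroxisomes are small organelles in which liver cells shorten very long and branched fatty acids, finish the side chains of bile acids and oxidise glycolate and several amino acids, with catalase breaking down the hydrogen peroxide that the oxidases release. They are built by the peroxins, the Pex proteins, which place membrane proteins, carry folded enzymes across the membrane into the matrix and divide the organelle. Transporters and channels of the membrane then supply substrates and cofactors to the enzymes, and many of the enzyme genes are known targets of the fatty acid receptor PPARA in rodent liver.

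The set described here held 42 mouse genes of peroxisome biogenesis and metabolism. They were chosen by symbol and not by a measured value, although earlier results of these arrays were known. It comprised the peroxins, the matrix enzymes and 7 genes of membrane transporters and channels. Of these, 41 genes were named by a probe-set, a group of probes summarised to 1 value per array, and 37 had a probe-set to themselves. Acaa1a and Acaa1b were read at 1 probe-set that names both, Decr2 at one shared with Fam234a and Mpv17 at one shared with Gtf3c2, so the signal of these cannot be assigned to 1 gene. Pex10 was named by no probe-set used here, and so has no expression value below, although its promoter was read. The 41 genes therefore gave 40 read-outs, of a table of 23332 probe-sets that named 14866 genes individually.

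Liver RNA of 8 male C57Bl6J mice was hybridised to Affymetrix Mouse Exon 1.0 ST arrays, 1 array per mouse. The 4 alcohol fed mice (WA-811, WA-817, WA-833 and WA-836) began at 6 weeks of age on a Lieber-DeCarli liquid diet with 2.06% alcohol for 3 days, followed by 4.18% for 4 days and 6.2% for 5 weeks, the last supplying 35% of calories. These percentages are those of the sample labels, and the study's methods give a slightly higher final one. The 4 control mice (WC-820, WC-824, WC-834 and WC-840) were pair-fed a liquid diet of equal calories with maltose and dextrin for 6 weeks. All were wild type at Dnmt1, the DNA methyltransferase that the wider study was about.

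Values below are log2 expression values, in which a difference of 1 is a doubling, and those of single mice follow the order in which the mice are named above. They were compared with limma over the probe-sets that passed a filter on low values, and a gene was called at a Benjamini-Hochberg adjusted p under 0.05. Levels are compared within a gene only, since probes of different genes respond differently. With 4 mice on each diet an exact two-sided permutation test of a single gene cannot give a p below 0.0286, the value it took for every gene whose groups did not overlap. The limma p-values set the difference between diets against the spread among these mice, with variances moderated over the probe-sets. The labels name no batch. In whole liver, fewer cells of a type and less RNA per cell cannot be told apart.

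Pairs of alcohol fed mice correlated at 0.983 to 0.984 over the probe-sets, pairs of control mice at 0.984 to 0.987, and pairs on different diets at 0.977 to 0.983. Array medians lay between 5.10 and 5.14 in alcohol fed mice and between 5.04 and 5.08 in control mice. The tissue label matched its markers, with albumin (Alb) at a mean of 13.51 in alcohol fed livers and 13.49 in control livers, and 7 of the 10 hepatocyte markers listed were measured, with none called. Their summed level, on the linear scale, was 58150 to 62350 in alcohol fed livers and 57320 to 60830 in control livers. The sum of 6 sinusoidal endothelial markers was 3670 to 4395 in alcohol fed livers against 2894 to 3227 in control livers, with 2 of them higher on alcohol. That sum was mostly the level of Clec4g. Clec4g and Lyve1 were the 2 called, and Stab1, Stab2, Kdr and Pecam1 were not. Of 2 erythroid genes measured, Alas2 was lower and Slc4a1 did not pass the filter. The sum of both, mostly the level of Alas2, was 138.1 to 342.9 in alcohol fed livers against 801.6 to 928.6 in control livers. Kupffer cell markers gave no call among 9 measured, and none of 6 monocyte and neutrophil or 7 lymphocyte markers passed the filter. Of 7 stellate cell markers that passed, 1 was higher and 1 lower. The part of these markers in the changes of peroxisome genes was not tested.

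Alcohol feeding went with changes in both directions among the peroxisome genes. Of the 39 read-outs that passed the filter, 8 were higher in alcohol fed livers (Acox2, Ehhadh, Hacl1, Pipox, Abcd4, Slc25a17, Pxmp4 and Mpv17), 7 were lower (Nudt7, Hao1, Pxmp2, Pex16, Pex11g, Pex6 and Acox3) and 24 were not called. The 8 include Abcd4 and Mpv17, whose proteins are placed outside peroxisomes, and Mpv17 was read at a shared probe-set. Over all probe-sets tested, 10.2% were higher (1059 probe-sets) and 5.98% lower (624 probe-sets), so that 62.9% of the calls were in the higher direction. After a further quantile normalisation that split was 51.8%, and after setting every array to the same median it was 45.1%. Under each of these 2 scalings 5 of the peroxisome genes were higher and 8 lower, with Pex3 added and Hacl1, Pipox and Pxmp4 no longer called. The 15.5% of probe-sets in which every alcohol array lay above every control array, and the 8.14% in which every alcohol array lay below, compared with 8 and 9 of the 39 peroxisome read-outs. Dao, D-amino acid oxidase, did not pass the filter, with a mean of 3.39 ± 0.13 in alcohol fed livers and 3.43 ± 0.11 in control livers (SD, n = 4 each).

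By class, the calls are given beside the 10.2% higher and 5.98% lower of all probe-sets tested. Among the 12 peroxins measured, 0 were higher and 3 lower, and 9 had no call, with a median change of -0.06. Among 21 matrix enzyme read-outs, of which 20 passed the filter, 4 were higher, 3 lower and 13 not called, with a median change of -0.08. The 7 genes listed as membrane genes held 4 higher, 1 lower and 2 not called, with a median change of 0.35. Of those 4, Abcd4 encodes a lysosomal transporter and Mpv17, read at a shared probe-set, a mitochondrial protein, which leaves Slc25a17 and Pxmp4 as peroxisomal genes. The medians given for this class, by direction and by size, include Abcd4 and Mpv17. That of 0.35 is the change of Abcd4 itself. The median change over all probe-sets tested was 0.05. In size, whichever the direction, the median change was 0.09 for peroxins, 0.15 for matrix enzymes and 0.41 for membrane genes, against 0.16 over all probe-sets tested. No test between the classes was made, since the genes were chosen with results of these arrays known.

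**Figure D1:**
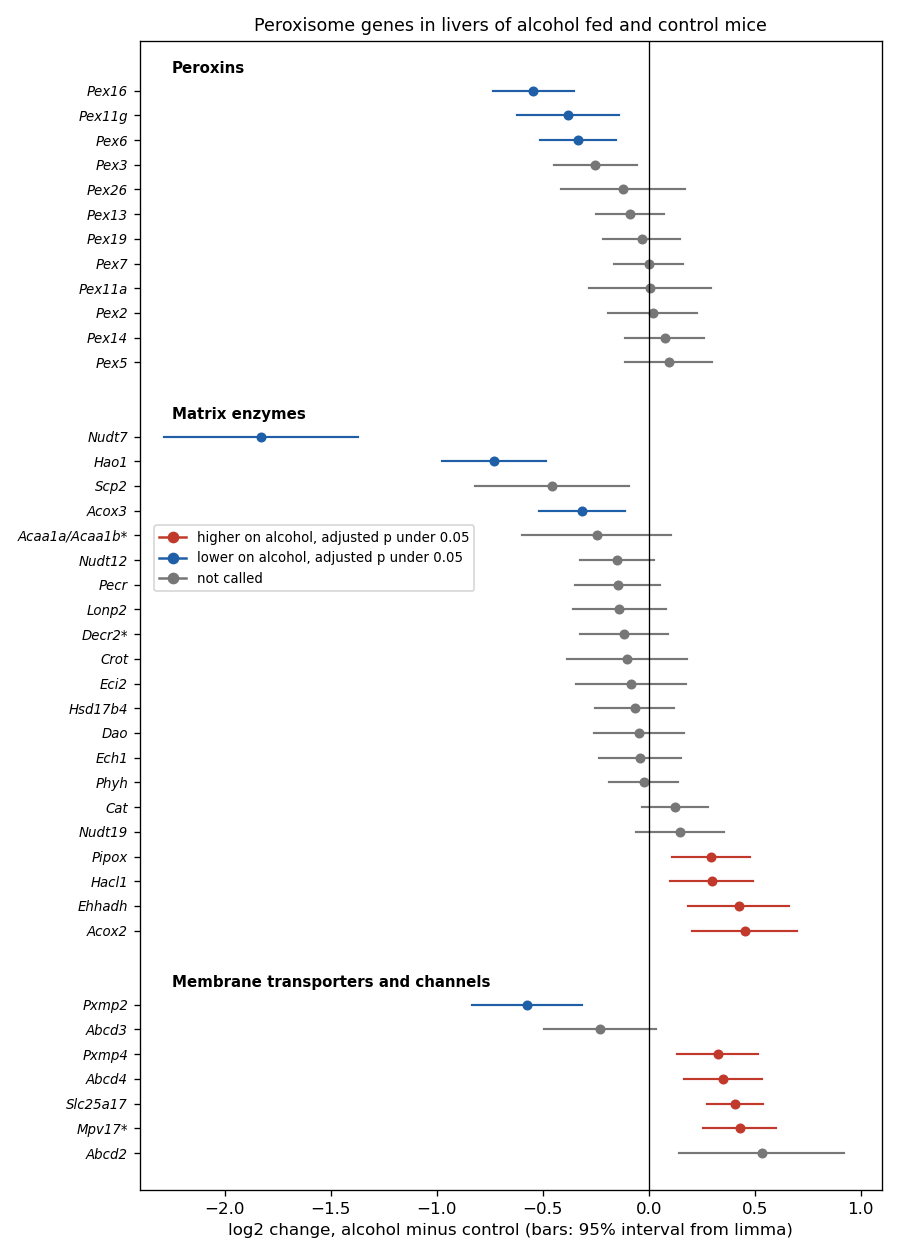
Log2 change of each of the 40 peroxisome read-outs, alcohol minus control (points), with its 95% interval from limma (bars), by class and sorted by change; red marks genes higher on alcohol, blue genes lower on alcohol and grey genes not called, and an asterisk marks a shared probe-set. No peroxin lies among the red points, the matrix enzymes spread from -1.83 for Nudt7 to 0.45 for Acox2, and 4 of the 7 membrane genes are red. Abcd4 and Mpv17, whose proteins are placed outside peroxisomes, are among these.

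Averaged within each mouse over the 7 membrane genes and set against the control mean, the class stood at 0.08 to 0.23 in alcohol fed mice and at -0.05 to 0.04 in control mice. The average includes Abcd4 and Mpv17, each higher in every alcohol fed mouse than in any control mouse. An average without them was not made, so this gap cannot be read as one of peroxisomal membrane genes. The matrix enzymes averaged -0.32 to -0.03 in alcohol fed mice and -0.01 to 0.01 in control mice, with WA-836 the lowest and the other 3 alcohol fed mice at -0.10 or above. This mean includes the large change of Nudt7, and the groups overlapped in the median over the same read-outs, which was 0.06, -0.01, -0.08 and -0.23 in alcohol fed mice and -0.01 to -0.0012 in control mice. The peroxins averaged -0.16 to -0.08 in alcohol fed mice and -0.10 to 0.06 in control mice, and here the groups overlapped, with WC-834 below WA-811. Subtracting the peroxin mean from the enzyme mean within a mouse gave -0.16 to 0.07 in alcohol fed mice and -0.05 to 0.10 in control mice, and the diets overlapped in it.

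**Figure D2:**
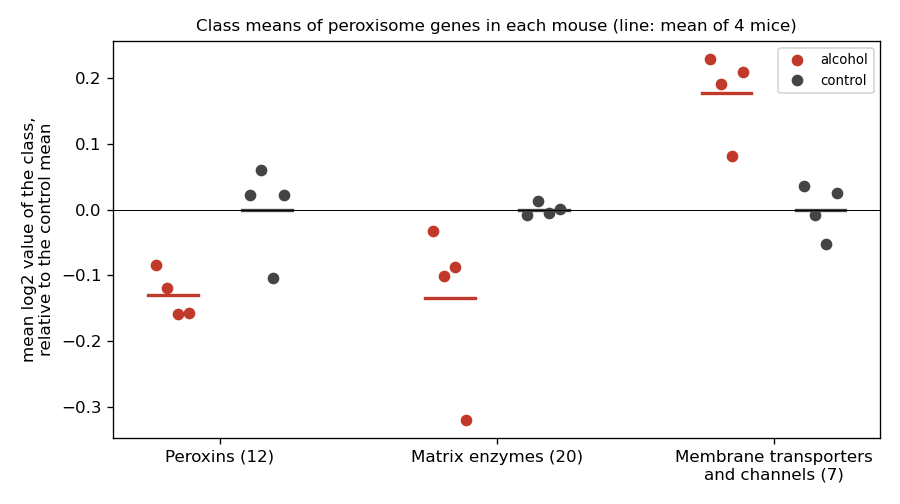
Mean log2 value of the peroxins (12 genes), the matrix enzymes (20 read-outs) and the membrane transporters and channels (7 genes) in each mouse, relative to the control mean of the class; points are mice, red for alcohol and grey for control, and lines are means of 4 mice. The membrane class lies at 0.08 to 0.23 in alcohol fed mice, and the matrix enzymes of WA-836 lie at -0.32. The membrane class includes Abcd4 and Mpv17, whose proteins are placed outside peroxisomes.

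Among the peroxins that import matrix enzymes, Pex6 was the only one of 7 called, and it was lower. Pex6 is an AAA ATPase that helps pull the import receptor Pex5 back out of the membrane for another round. It stood at 8.27, 8.26, 8.33 and 8.06 in alcohol fed mice against 8.58, 8.51, 8.50 and 8.66 in control mice. Every alcohol fed mouse was below every control mouse, with WA-836 the lowest. The log2 change was -0.33 ± 0.08 (SE), 1.26-fold lower on alcohol (limma adjusted p = 0.0230). The call was lost without WC-820, WC-824 or WC-840, when the adjusted p reached 0.0687.

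The other 6 import peroxins had log2 differences of -0.12 to 0.09 and were not called. They are the receptors Pex5 and Pex7, which bind the targeting signals of matrix enzymes, the docking proteins Pex13 and Pex14, the ubiquitin ligase Pex2 and Pex26, which anchors Pex6 to the membrane. Pex5 averaged 9.07 ± 0.16 in alcohol fed livers and 8.97 ± 0.08 in control livers (SD, n = 4 each). Pex7 averaged 9.30 on both diets, with a 95% interval of the change from -0.16 to 0.16.

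Pex16, Pex3 and Pex19 place proteins in the peroxisomal membrane, with Pex16 and Pex3 as membrane anchors and Pex19 as the carrier that delivers to them. Pex16 showed the largest change of the peroxins measured. Its values were 9.01, 8.92, 8.88 and 9.14 in alcohol fed mice against 9.57, 9.66, 9.42 and 9.49 in control mice. The highest alcohol fed mouse, WA-836, was below the lowest control mouse, WC-834. The log2 change was -0.54 ± 0.09 (SE), or 1.46-fold lower (limma adjusted p = 0.00510), and it stayed called when any 1 mouse was left out.

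Pex3 stood just outside the threshold, at 8.85, 8.75, 8.80 and 8.63 in alcohol fed mice against 8.87, 9.11, 8.92 and 9.14 in control mice. These groups did not overlap either, although WA-811 and WC-820 were close. The change of -0.25 ± 0.09 (SE) had a limma adjusted p of 0.0792, which became 0.0456 after a further quantile normalisation and 0.0416 after median centring. Pex19 averaged 9.44 ± 0.10 in alcohol fed livers and 9.47 ± 0.10 in control livers (SD, n = 4 each).

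The Pex11 proteins elongate and divide the organelle, and 1 of the 2 measured was lower. Pex11g had values of 8.12, 7.86, 8.23 and 8.17 in alcohol fed mice against 8.40, 8.39, 8.40 and 8.70 in control mice. All alcohol fed mice were lower, and WC-840 stood above the other control mice. The log2 change was -0.38 ± 0.11 (SE), or 0.769 of the control level (limma adjusted p = 0.0410), and the call was lost on leaving out any 1 mouse except WA-833, with an adjusted p of up to 0.0976. Pex11a, the PPARA-responsive member in rodents, was 9.80 and 9.72 in WA-811 and WA-817 but 9.29 and 9.33 in WA-833 and WA-836, against 9.46 to 9.69 in control mice. Its alcohol fed mice thus lay on both sides of the control mice, and the change was 0.01 with a 95% interval from -0.28 to 0.29.

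Of the enzymes, the oxidases that open β-oxidation moved in opposite directions. Acox2 oxidises the CoA esters of bile acid intermediates and branched fatty acids. It stood at 10.24, 10.20, 9.91 and 10.43 in alcohol fed mice against 9.78, 9.72, 9.83 and 9.64 in control mice. Each alcohol fed mouse was higher than each control mouse, with WA-833 closest to the controls. The log2 change was 0.45 ± 0.11 (SE), 1.37-fold higher (limma adjusted p = 0.0239), and the adjusted p reached 0.0693 when WA-811, WA-817, WC-824 or WC-840 was left out.

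Acox3, known as pristanoyl-CoA oxidase and likewise active on branched chains, was 7.40, 7.36, 7.26 and 7.21 in alcohol fed mice against 7.61, 7.59, 7.46 and 7.82 in control mice. The alcohol fed mice were all lower, with the smallest gap between WA-811 and WC-834. The change of -0.31 ± 0.09 (SE), 1.24-fold lower, was near the threshold (limma adjusted p = 0.0452), and the call was lost without any 1 mouse except WC-834 (adjusted p up to 0.105).

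The hydration and dehydrogenation steps of β-oxidation are carried out by 2 multifunctional enzymes, Ehhadh and Hsd17b4. Ehhadh, the L-bifunctional enzyme and a PPARA target in rodents, stood at 11.12, 11.32, 11.19 and 10.83 in alcohol fed mice against 10.64, 10.75, 10.76 and 10.62 in control mice. WA-836 came close to the control mice, while the other 3 were clearly above them. The change was 0.42 ± 0.11 (SE), 1.34-fold higher (limma adjusted p = 0.0254), and without any 1 mouse except WA-836 the call was lost (adjusted p up to 0.0726). Hsd17b4, the D-bifunctional enzyme that handles bile acid intermediates, averaged 11.13 ± 0.14 in alcohol fed livers and 11.20 ± 0.04 in control livers (SD, n = 4 each) and was not called.

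Thiolases close the cycle. Scp2, whose locus encodes a thiolase and a sterol carrier, had values of 12.61, 12.35, 12.80 and 11.94 in alcohol fed mice against 12.88, 12.87, 12.91 and 12.85 in control mice. The control mice were nearly equal, all 4 alcohol fed mice were below them and WA-836 was far below. The change of -0.46 ± 0.16 (SE) was not called (limma adjusted p = 0.0850), but was when WA-833 was left out (adjusted p = 0.0290). At the brighter probe-set shared by the thiolases Acaa1a and Acaa1b, the mean was 11.69 ± 0.34 in alcohol fed livers and 11.93 ± 0.11 in control livers (SD, n = 4 each), with no call (adjusted p = 0.314). Their second shared probe-set averaged 8.30 ± 0.25 in alcohol fed livers against 8.91 ± 0.17 in control livers, a change of -0.61 (adjusted p = 0.0168), so the probe-sets of this pair disagreed on the call. The mean of both was called lower (limma adjusted p = 0.0326).

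The auxiliary enzymes that move or reduce double bonds of acyl chains, Ech1, Eci2, Decr2 and Pecr, had log2 differences of -0.15 to -0.04 and none was called. Carnitine octanoyltransferase, Crot, which readies shortened chains for export, had a difference of -0.10 (limma adjusted p = 0.618), and Lonp2, the matrix protease, one of -0.14 (adjusted p = 0.361), neither called.

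Alpha-oxidation removes 1 carbon from phytanic acid in steps run by Phyh and Hacl1. Hacl1, the lyase, stood at 11.17, 11.45, 11.18 and 11.36 in alcohol fed mice against 11.12, 10.97, 10.97 and 10.91 in control mice. The groups did not overlap, though WC-820 was only just below WA-811 and WA-833. The change was 0.30 ± 0.09 (SE), 1.23-fold higher (limma adjusted p = 0.0477), and it lost the call without WA-817, WA-836, WC-824, WC-834 or WC-840 (adjusted p up to 0.121). Phyh, the hydroxylase before it, averaged 12.75 ± 0.09 in alcohol fed livers and 12.77 ± 0.06 in control livers (SD, n = 4 each).

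The largest change among the 40 read-outs was that of Nudt7, a nudix hydrolase that cleaves coenzyme A and its acyl esters in peroxisomes. Nudt7 stood at 9.40, 8.96, 9.41 and 8.51 in alcohol fed mice against 10.65, 11.19, 10.87 and 10.89 in control mice. The highest alcohol fed mouse was more than 1 log2 unit below the lowest control mouse. The log2 change was -1.83 ± 0.20 (SE), 3.55-fold lower on alcohol (limma adjusted p = 0.00127). Of the other peroxisomal nudix genes, Nudt19 averaged 8.80 ± 0.12 in alcohol fed livers and 8.65 ± 0.14 in control livers, and Nudt12, an NADH hydrolase, 8.98 ± 0.11 in alcohol fed livers and 9.13 ± 0.08 in control livers (SD, n = 4 each), neither called.

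Hao1, which oxidises glycolate to glyoxylate, was the second gene past the stricter thresholds of the study, an unadjusted P of 0.0001 with a 1.5-fold change, beside Nudt7. Those thresholds called 1.76% of the probe-sets tested in either direction. Hao1 had values of 10.32, 10.27, 10.68 and 10.20 in alcohol fed mice against 11.15, 11.00, 11.19 and 11.04 in control mice. WA-833 was the highest of the alcohol fed mice and still below each control mouse. The change was -0.73 ± 0.11 (SE), 1.66-fold lower (limma adjusted p = 0.00416).

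Pipox, which oxidises pipecolate and sarcosine, was 11.62, 11.47, 11.57 and 11.31 in alcohol fed mice against 11.15, 11.19, 11.20 and 11.25 in control mice. WA-836 was again the alcohol fed mouse nearest to the controls. The change of 0.29 ± 0.08 (SE), 1.23-fold higher (limma adjusted p = 0.0399), lost its call without any 1 mouse except WA-836 (adjusted p up to 0.0946). Catalase, Cat, averaged 12.65 ± 0.09 in alcohol fed livers and 12.53 ± 0.04 in control livers (SD, n = 4 each), a change of 0.12 with a 95% interval from -0.03 to 0.28 that was not called.

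Of the 4 genes listed as membrane carriers and channels other than ABC transporters, Slc25a17, Pxmp4 and Mpv17 were higher and Pxmp2 was lower. Slc25a17, the mitochondrial carrier family member that sits in peroxisomes and exchanges coenzyme A and related nucleotides, stood at 9.56, 9.54, 9.54 and 9.56 in alcohol fed mice against 9.16, 9.13, 9.15 and 9.13 in control mice. The SD was 0.01 on each diet (n = 4 each), and the groups were far apart beside it. The change was 0.41 ± 0.06 (SE), 1.33-fold higher on alcohol (limma adjusted p = 0.00352).

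Pxmp2, which forms a pore for small metabolites, was lower. It stood at 10.80, 10.24, 10.47 and 10.60 in alcohol fed mice against 11.02, 11.09, 11.07 and 11.22 in control mice. The alcohol fed mice were spread wider than the control mice but lay below all of them. The change was -0.57 ± 0.12 (SE), 1.49-fold lower (limma adjusted p = 0.01165).

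Pxmp4, a membrane protein of little known function, was 9.62, 9.66, 9.32 and 9.50 in alcohol fed mice against 9.20, 9.20, 9.22 and 9.17 in control mice. All alcohol fed mice were higher, and WA-833 was nearest to the controls. The change was 0.33 ± 0.09 (SE), 1.25-fold higher (limma adjusted p = 0.0312), and the call was lost without any 1 mouse except WA-833 (adjusted p up to 0.0802).

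At the probe-set that Mpv17 shares with Gtf3c2, values were 8.85, 9.0, 8.91 and 8.95 in alcohol fed mice against 8.61, 8.36, 8.45 and 8.56 in control mice. The groups were well separated, and the change was 0.43 ± 0.08 (SE), 1.35-fold higher (limma adjusted p = 0.00773). A second probe-set shared by the same genes differed by -0.04 (adjusted p = 0.761), and the mean of both was not called (adjusted p = 0.0808). The Mpv17 protein is now placed in the inner mitochondrial membrane.

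Of the ABC transporters, Abcd4 was called. Its values were 7.04, 6.98, 6.90 and 7.23 in alcohol fed mice against 6.72, 6.65, 6.70 and 6.68 in control mice. Each alcohol fed mouse was above each control mouse, with WA-836 the highest. The change was 0.35 ± 0.08 (SE), 1.27-fold higher (limma adjusted p = 0.0214), and was lost without WC-824, WC-834 or WC-840 (adjusted p up to 0.0637). Abcd4 carries cobalamin out of lysosomes, despite its name.

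Abcd2 and Abcd3 import acyl-CoA esters into peroxisomes. Abcd2 had the largest positive change of the 40 read-outs but was not called. It stood at 8.86, 9.20, 8.58 and 9.27 in alcohol fed mice against 8.71, 8.49, 8.11 and 8.48 in control mice. WA-833 was below WC-820, so the groups overlapped. The change of 0.53 ± 0.17 (SE) had a limma adjusted p of 0.0656, and of 0.0243 without WA-833. Abcd3 averaged 10.60 ± 0.24 in alcohol fed livers and 10.83 ± 0.08 in control livers (SD, n = 4 each), and was not called (adjusted p = 0.216).

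**Figure D3:**
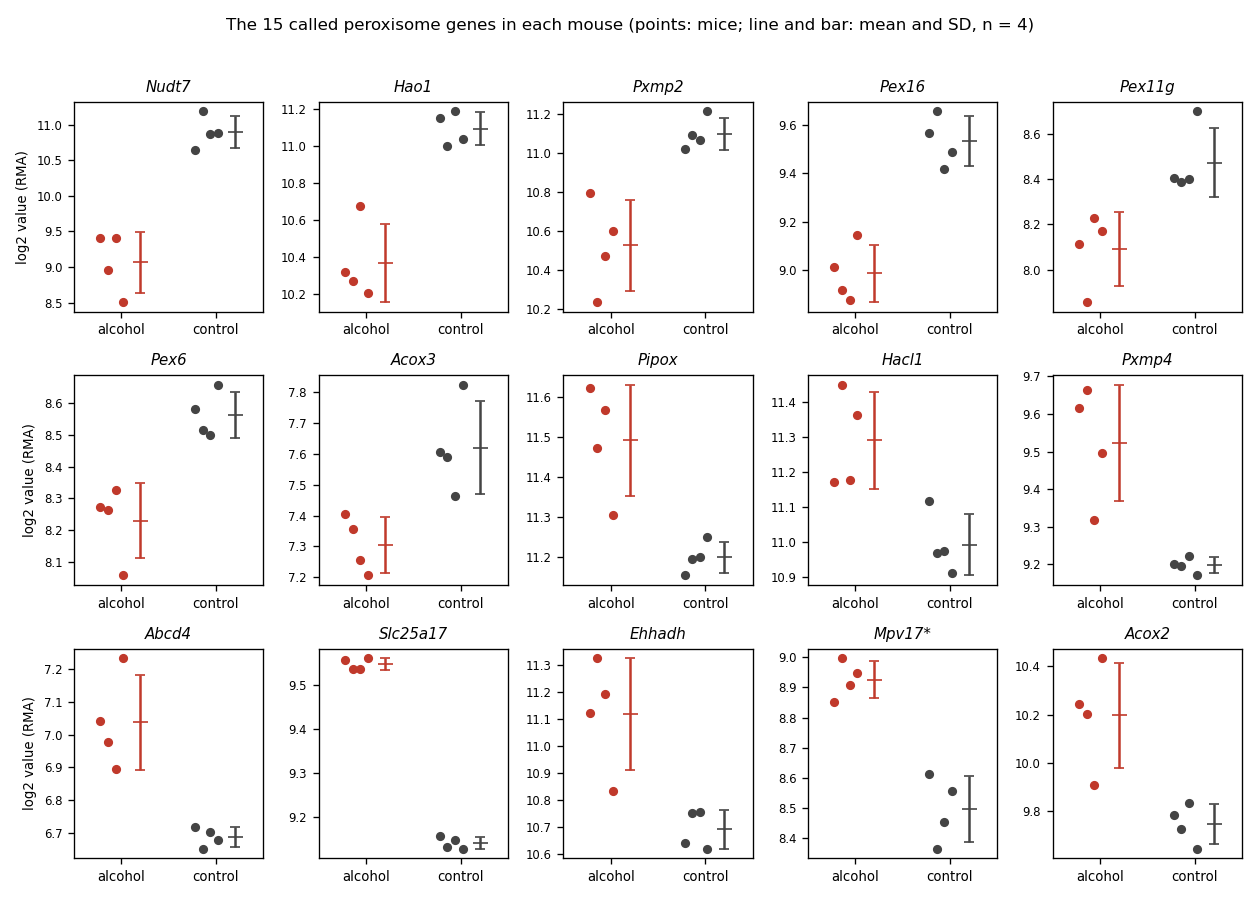
Log2 value of each of the 15 called peroxisome genes in each mouse, alcohol (red) left of control (grey); points are mice, the line and bar beside them the mean and SD of 4 mice, each panel has its own scale and the asterisk marks the shared probe-set of Mpv17. In each panel the alcohol points and the control points do not overlap. The gap is largest for Nudt7, at 8.51 to 9.41 against 10.65 to 11.19, and the points are tightest for Slc25a17. Abcd4 and Mpv17, whose proteins are placed outside peroxisomes, are among the 15.

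The alcohol fed mice varied more among themselves than the control mice did. Over the 39 read-outs the median SD was 0.144 in alcohol fed mice and 0.0820 in control mice, and the SD was larger on alcohol in 28 of them, or 71.8%, against 63.5% of all probe-sets tested. Among the 15 called genes WA-836 was the alcohol fed mouse farthest from the control mean in 7 and WA-817 in 6, while WA-833 was the nearest in 7. Of genes that were not called, WA-836 was the lowest of the 8 mice for Scp2, the Acaa1 pair at its brighter probe-set, Crot, Eci2, Lonp2 and Abcd3, among others, chosen here after their values were seen.

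Other genes of peroxisomes, from a list of 57 of which 40 were measured and 32 passed the filter, held 4 called higher and 3 called lower, with 25 uncalled, beside 10.2% and 5.98% of all probe-sets tested. The median change of the 40 measured was -0.01. Acot3 and Acot4, acyl-CoA thioesterases of peroxisomes from a cluster of near-identical genes in which probes may cross-react, were 2.93-fold higher (limma adjusted p = 0.0161) and 1.88-fold higher (adjusted p = 0.01165). Acbd4, a protein of contacts between peroxisomes and the endoplasmic reticulum, was 1.31-fold higher (adjusted p = 0.0284), and Trim37, a ubiquitin ligase acting on Pex5 in human cells, 1.28-fold higher (adjusted p = 0.0408).

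The 3 that were lower belong to other steps of lipid and glyoxylate metabolism. Agxt, which converts the glyoxylate that Hao1 makes into glycine, averaged 9.03 ± 0.37 in alcohol fed livers and 10.01 ± 0.17 in control livers (SD, n = 4 each), 1.96-fold lower (limma adjusted p = 0.00760). Amacr, the racemase that readies branched and bile acid CoA esters for Acox2, was 1.35-fold lower (adjusted p = 0.0120). Pmvk, an enzyme of the mevalonate pathway, was 1.75-fold lower (adjusted p = 0.0133).

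From a list of 22 genes of PPARA, its partners and targets, 16 were measured and 14 passed the filter. Of these 14, 1 was higher, 2 lower and 11 not called, beside the same 10.2% and 5.98%. The change was positive in 8 and negative in 6 of the 14. The median change of the 16 measured was 0.19, against 0.05 over all probe-sets tested. Ppara itself averaged 9.93 ± 0.20 in alcohol fed livers and 10.53 ± 0.12 in control livers (SD, n = 4 each), 1.51-fold lower (limma adjusted p = 0.00857). Cpt1a, the gate of mitochondrial fatty acid entry, was 1.49-fold lower (adjusted p = 0.0107), whereas Cyp4a14, a fatty acid hydroxylase, was 3.18-fold higher (adjusted p = 0.00474). Of a few peroxisome genes of the set known to respond to PPARA in rodents, Ehhadh was called, with a log2 difference of 0.42. Not called were the Acaa1 pair at -0.24 at its brighter probe-set, Abcd3 at -0.23, Crot at -0.10, Hsd17b4 at -0.07, Ech1 at -0.04 and Pex11a at 0.01. The second probe-set of the Acaa1 pair was called lower, as given above. The genes of this list were named after their values were seen and are not a full list of such genes. The direction of PPARA-responsive genes therefore cannot be read from them. Genes of the set left out of the list went both ways, from -1.83 for Nudt7 to 0.53 for Abcd2, which was not called. Acot3 and Acot4, outside the set and called higher as given above, are not in the list either.

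PPARA binds with RXRA to paired AGGTCA half-sites, so the half-sites before the start sites of the peroxisome genes were searched. RefSeq promoters of mouse build GRCm38.p6, running from 250 bases before to 50 bases after the start, were found for 35 of the 42 genes, with 44 windows. AGGTCA on either strand was in 5 of these 44 windows, 11.4%, against 16.3% of all 32851 windows. A direct repeat of the half-site with 1 base between the copies, in which the base before CA in each copy could be any letter, was in 0 of 44 windows and in 0.381% of all windows. Where either of these bases is T it holds the half-site as well. The windows are short, and a match describes the letters and not a site. The 4 half-sites that lay before a start are given with their flanks, the motif in capitals, because they show which genes carry one.
Cat (chr2:103485342-103485367, minus strand): tgactctcagAGGTCAgagaacacca
Dao (chr5:114003802-114003827, plus strand): ccgaagacttTGACCTtgtgtttcat
Pex11g (chr8:3467806-3467831, minus strand): caggcttagaAGGTCAttctgggtgt
Scp2 (chr4:108118641-108118666, minus strand): ctaacacagtAGGTCAaaagaaccca
They lay 204, 72, 173 and 109 bases before the start of Cat, Dao, Pex11g and Scp2. Dao has windows for 3 starts, and the match was in 1 of these windows. Of the 4 genes Pex11g was called, and it was lower on alcohol. The fifth match, in Phyh, lay 36 bases after the start.

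Because the study concerned DNA methylation, which in mammals falls on CG dinucleotides, the CG content of the same promoters was counted over the 250 bases before the start. No methylation was measured in these files. The paper reports no significant effect of alcohol on the methylated cytosine content of liver DNA. It detected no methylation at the CpG islands, CG-rich stretches, of the genes it examined, which are not in this set. The median was 13.0 CG for the peroxins, 10.75 for the matrix enzymes and 13.0 for the membrane genes with a promoter, against 12.5 for 11869 genes named alone by an array probe-set. At least 10 CG were found in 72.7% of the peroxins, 65.0% of the matrix enzymes and 3 of 4 membrane genes, against 59.1% of the array genes.

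**Figure D4:**
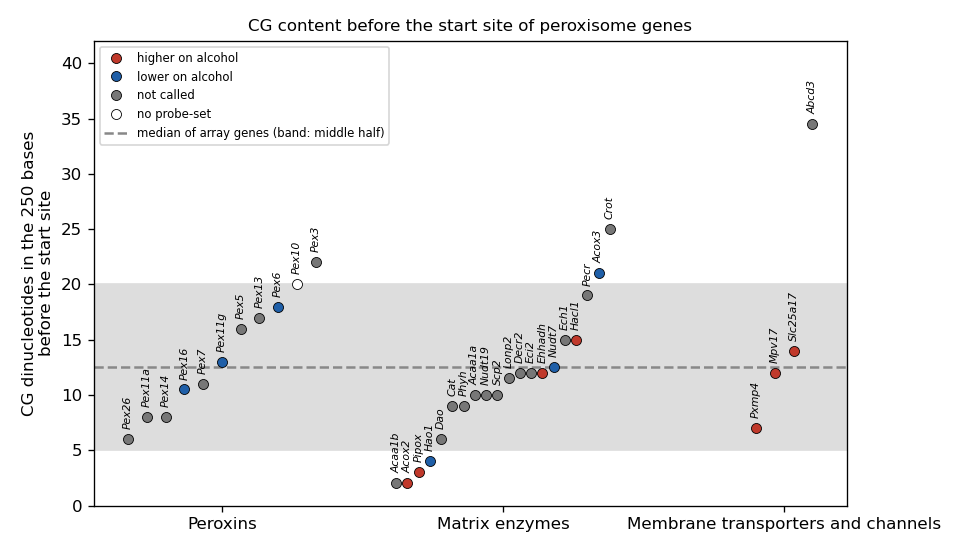
Number of CG dinucleotides in the 250 bases before the start site (y axis) of each peroxisome gene with a promoter, by class; colour gives the call on alcohol, an open circle marks a gene with no probe-set, the dashed line is the median of the array genes at 12.5 and the band runs from 5 to 20, their lower and upper quartiles. Genes called in either direction stand from 2 CG (Acox2) to 21 CG (Acox3).

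The promoters of the called genes ranged widely, and 4 of them, those of called genes with a promoter that kept their call in each of the 17 settings other than changed thresholds, are given as the 120 bases before the start, with CG in capitals.
Nudt7 (chr8:114133454-114133573, plus strand): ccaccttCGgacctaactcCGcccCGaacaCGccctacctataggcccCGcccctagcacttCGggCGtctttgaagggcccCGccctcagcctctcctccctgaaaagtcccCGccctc
Hao1 (chr2:134554353-134554472, minus strand): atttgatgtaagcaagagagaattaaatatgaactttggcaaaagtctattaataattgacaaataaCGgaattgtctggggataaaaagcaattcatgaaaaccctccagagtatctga
Pex16 (chr2:92374556-92374675, plus strand): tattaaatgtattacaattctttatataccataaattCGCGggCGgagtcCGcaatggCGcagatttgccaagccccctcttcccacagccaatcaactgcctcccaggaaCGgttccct
Slc25a17 (chr15:81360766-81360885, minus strand): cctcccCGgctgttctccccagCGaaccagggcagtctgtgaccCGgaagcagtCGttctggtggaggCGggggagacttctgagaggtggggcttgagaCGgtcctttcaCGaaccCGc
Nudt7 and Pex16 have a second start further downstream, and the stretch before the first is shown. The stretch of Hao1 held 1 CG and that of Nudt7 held 9, although both genes were lower on alcohol, and the 8 CG of Slc25a17 stood before a gene that was higher. This is a description of 4 sequences, with no test.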

How the data were processed

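Liver RNA of 8 mice, 4 on each diet, was measured on 1 array per mouse. The deposited values are on the log2 scale and came from RMA, which the authors ran (background correction, quantile normalisation and summary of the probes of a probe-set) in the Affymetrix Expression Console, whose version was not given in the sources used here. RMA compresses small differences at low levels and gives no detection call, and the number of arrays limits the precision. The gene names of probe-sets came from the array annotation: 15002 probe-sets had 1 symbol, 1013 several and 7317 none. A gene was read at its probe-set of highest mean.

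The 10430 probe-sets with the highest 4th-highest value of 8 (at least 5.56) were kept, without use of the diets, to match the number the authors kept. Diets were compared by limma (version 3.58.1, under R 4.3.3), with diet as the only term, 6 residual degrees of freedom and moderated variances. This fit was tested on simulated data, and p-values were adjusted by Benjamini-Hochberg over all probe-sets kept. Dao was read from the fit without the filter. Members past an adjusted p of 0.05 and those nearest outside it were given for each mouse, the others by counts and ranges, and up to 8 further genes of the listed pathway by size of change.

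The genes, classes and lists were chosen with earlier results of these data known. Alternatives left out the filter or based it on the mean, changed the variance model, weighted arrays, renormalised or centred them, averaged the probe-sets of a gene, changed the thresholds or left out each mouse. Promoters came from RefSeq, and the CG count with its limit of 10 was added after the expression values were seen. Protein sequences were not analysed here.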

Additional observations from a re-analysis of the deposited data

Results flagged for a closer look

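Among 80 groups of 4 values (40 read-outs on each diet), a mouse stood apart from the other 3 in 4 groups, by a gap past Dixon's 95% critical value for 4 samples (0.875 to 0.955 of the group's range). Chance alone would give about 1 such group in 20. Pex14 was 8.58 in WA-811 against 8.38 in the 3 other alcohol fed mice. Pex11a was 9.69 in WC-824 against 9.46 to 9.49 in the other control mice. Pex11g was 8.70 in WC-840 against 8.39 to 8.40 in the other control mice, and it is the 1 called gene of the 4. Crot was 12.07 in WC-820 against 11.80 to 11.83 in the other control mice. A different mouse stood apart in each case.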

How the results depend on the processing

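No paired analysis was possible because the numbers in the labels name single mice and no number occurs on both diets. Of the 15 called genes, Nudt7, Hao1, Pex16, Slc25a17 and Pxmp2 kept their call in all 17 settings other than the changed thresholds, 10 lost it in at least 1 and none of the 15 changed sign. The count of probe-sets called, 1683, became 773 without the filter, 184 at a P of 0.0001 with 1.5-fold, 543 at an adjusted p of 0.01, 2589 at 0.10 and 967 to 1643 with 1 mouse left out, the lowest without WC-824. The 8 genes of the set higher on alcohol include Abcd4 and Mpv17, whose proteins are placed outside peroxisomes. Their count became 2 without the filter, 3 without moderated variance, 5 after quantile normalisation, 5 after median centring, 0 at a P of 0.0001 with 1.5-fold (9 at an adjusted p of 0.10), 2 at an adjusted p of 0.01 and 2 to 7 with 1 mouse left out, the lowest without WC-824 or WC-840. The 7 that were lower became 4, 2 and 3 without the filter, at a P of 0.0001 with 1.5-fold and at an adjusted p of 0.01, and 4 to 7 with 1 mouse left out. With the probe-sets of a gene averaged, 7 were higher and 8 lower, with Mpv17 lost and the Acaa1 pair gained. The fit without the filter adjusts over all 23332 probe-sets and those without a mouse use 7 arrays; other causes were not tested. Sign changes occurred in 8 genes with no call. Pex2 (0.02) was -0.023 after quantile normalisation and -0.041 after centring, and Pex11a (0.01) was -0.027 and -0.053. With 1 mouse left out, Pex2 ran from -0.047 to 0.064, Pex11a from -0.081 to 0.089, Pex7 from -0.034 to 0.033, Pex19 from -0.074 to 0.0088, Ech1 from -0.086 to 0.0105, Eci2 from -0.15 to 0.028, Phyh from -0.053 to 0.0058 and Crot from -0.17 to 0.0060.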
